A study of Mus musculus with 4 samples.

Results

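The genes described here are 38 genes of the contractile apparatus and of actin stress fibres, taken by symbol from the deposited expression table, where each had exactly 1 of the rows that cover 23997 symbols. They encode smooth muscle actins, calponins and other filament-binding proteins, myosin chains, tropomyosins, crosslinkers, LIM domain proteins and the transcription and RNA regulators of this programme. Of the 38, 36 reached a mean of 1 FPKM (fragments per kilobase of transcript, scaled to the mapped total of the library) over all libraries and entered the tests, and Myh11 and Myocd did not. The series sequenced total RNA of bone marrow-derived mesenchymal stem/progenitor cells (MSPCs), stromal cells grown from marrow on plastic, to ask what Asxl1 does for their self-renewal and fate. There were 2 Asxl1-/- libraries and 2 wild-type (WT) libraries, all from mice on a C57BL/6 background and from cultures at passages 5 to 10 in MesenCult medium. The labels give neither the ages of the mice nor how Asxl1 was deleted, and they do not say that the libraries of a genotype came from separate animals, so that spread and p-values describe these libraries.

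Stress fibres are bundles of actin filaments and non-muscle myosin that are held together by alpha-actinin, stabilised by tropomyosin, calponin and caldesmon, and anchored at focal adhesions. Their genes are switched on together by the transcription factor Srf, which binds the CArG box with its actin-sensing partners Mkl1 and Mkl2 or, in cardiac and smooth muscle, with Myocd. Stromal cells and myofibroblasts in culture carry Acta2-containing stress fibres, while differentiated smooth muscle adds Myh11, Lmod1 and Synpo2.

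The bases just before the start sites of 4 genes are shown because they hold, or in the case of Cnn1 lack, the element through which Srf acts. Each line gives 150 bases up to the base before the start site, 5′ to 3′, from RefSeq; capitals mark CArG boxes, those with a G or C at 1 of the 6 inner positions included, and a TATAAA motif on either strand.
Acta2, GRCm38.p6 chr19:34255374-34255523, minus strand: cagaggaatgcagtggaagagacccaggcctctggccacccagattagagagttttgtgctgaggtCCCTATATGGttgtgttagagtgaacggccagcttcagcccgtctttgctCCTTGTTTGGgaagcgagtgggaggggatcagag
Fhl2, GRCm38.p6 chr1:43196762-43196911, minus strand: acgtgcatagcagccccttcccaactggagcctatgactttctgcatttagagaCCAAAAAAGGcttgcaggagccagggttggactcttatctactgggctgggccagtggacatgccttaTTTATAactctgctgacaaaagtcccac
Srf, GRCm38.p6 chr17:46556163-46556312, minus strand: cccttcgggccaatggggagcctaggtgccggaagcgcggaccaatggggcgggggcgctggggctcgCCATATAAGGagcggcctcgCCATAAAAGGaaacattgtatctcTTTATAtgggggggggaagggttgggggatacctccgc
Cnn1, GRCm38.p6 chr9:22099103-22099252, plus strand: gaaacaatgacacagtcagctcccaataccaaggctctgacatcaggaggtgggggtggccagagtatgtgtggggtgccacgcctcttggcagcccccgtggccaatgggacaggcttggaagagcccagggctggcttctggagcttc

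In the window from 250 bases before to 50 bases after the start site, 32 of the 38 genes matched the table with 42 windows; Actg2, Tagln, Myh11, Csrp2, Myocd and Rbpms were without an entry. An intact CArG box lay in 8 of these windows (19.0%), which belong to Cnn2, Fhl1, Fhl2, Myl6, Myl9, Srf and Vcl, and in 1.63% of all 32851 windows of 300 bases. Many of these genes are known as Srf targets, so the share describes how such a list is composed. The box was CCTTATAAGG in Cnn2 and Vcl, CCTTATATGG in Myl6 and in a second Fhl2 window, CCTAATAAGG in Myl9 and CCTAAAATGG in Fhl1. Acta2 held 2 boxes with 1 inner G or C, CCCTATATGG at -84 and CCTTGTTTGG at -34 from the start site; this form was found in 14.3% of the members' windows and 8.50% of all windows. The MCAT element CATTCC, bound by Tead factors, was present on either strand in 31.0% of the members' windows and 14.7% of all windows. TATAAA was present on either strand in 16.7% of the members' windows and 13.6% of all. No match overlapped another.

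Asxl1 itself had 0.273 and 0.312 FPKM in the Asxl1-/- libraries, against 14.6 and 11.2 FPKM in the WT libraries, as labelled. Summed over genes spanning 300 bp or more, FPKM came to 427849 and 390736 for Asxl1-/-, against 423556 and 415925 for WT. Over all symbols the sums were 553030 and 497274 for Asxl1-/-, against 563694 and 703662 for WT. The excess of WT replicate 2 thus lay in genes of shorter span. The number of reads behind these sums is unknown. The 13 mesenchymal stromal markers summed to 5761 and 4420.03 FPKM in the Asxl1-/- libraries, against 4354 and 6286 FPKM in the WT libraries. Most of each sum lay in Col1a1, Col1a2 and Cxcl12, with Col1a1 at 1395 and 1395 FPKM in Asxl1-/- and 1298 and 2043 FPKM in WT. Single markers varied more. Pdgfra had 58.8 and 63.0 FPKM in the Asxl1-/- libraries, against 80.9 and 4.78 FPKM in the WT libraries. Ly6a had 1059 and 184 FPKM in the Asxl1-/- libraries, against 70.0 and 276 FPKM in the WT libraries. The 18 macrophage markers summed to 87.4 and 395 FPKM in Asxl1-/- replicates 1 and 2 and to 7.77 and 586 FPKM in WT replicates 1 and 2. The first of these sums held 72.2 FPKM of Fcer1g alone, and 14, 2, 15 and 2 of the 18 markers were under 1 FPKM in the same order of libraries. Macrophage markers were thus more abundant in replicate 2 of either genotype, and its part in the results below was not tested. The skeletal muscle factors Myod1, Myog and Myf5 were listed at 0 in every library. The 10 endothelial markers summed to at most 9.29 FPKM in any library. Most of these sums lay in Cdh5 (7.11 FPKM in Asxl1-/- replicate 2 and 0.01005 FPKM or less elsewhere) and Egfl7 (1.95 and 1.16 FPKM in the Asxl1-/- libraries, against 6.21 and 2.71 FPKM in the WT libraries), while Pecam1 reached at most 0.0608 FPKM. All 14 proliferation genes had a log2 fold change below 0, beside 56.8% of all genes tested. Of these 14, 13 were lower in both Asxl1-/- libraries, beside 25.2% of all genes. They summed to 233 and 212 FPKM in the Asxl1-/- libraries, against 542 and 410 FPKM in the WT libraries. In bulk RNA, fewer cells of a kind and less RNA per cell cannot be told apart.

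The 38 genes together summed to 7728 and 8966 FPKM in the Asxl1-/- libraries, against 5589.9 and 8522 FPKM in the WT libraries, or 1.81% and 2.29% against 1.32% and 2.05% of the FPKM of genes spanning 300 bp or more. The WT cultures lay further apart than the means of the genotypes. WT replicate 1 held the lowest level for 18 of the 36 tested members (24.9% of all genes tested were lowest there), and Asxl1-/- replicate 2 held the highest level for 15 (20.6% of all genes). WT replicate 2 exceeded WT replicate 1 for 29 of 36 members, while 43.9% of all genes did so, and Asxl1-/- replicate 2 exceeded Asxl1-/- replicate 1 for 25, against 49.7% of all genes. The difference between the genotype means was larger than the difference within either genotype for 12 of 36 members (33.3%) and for 27.8% of all genes tested.

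**Figure D1:**
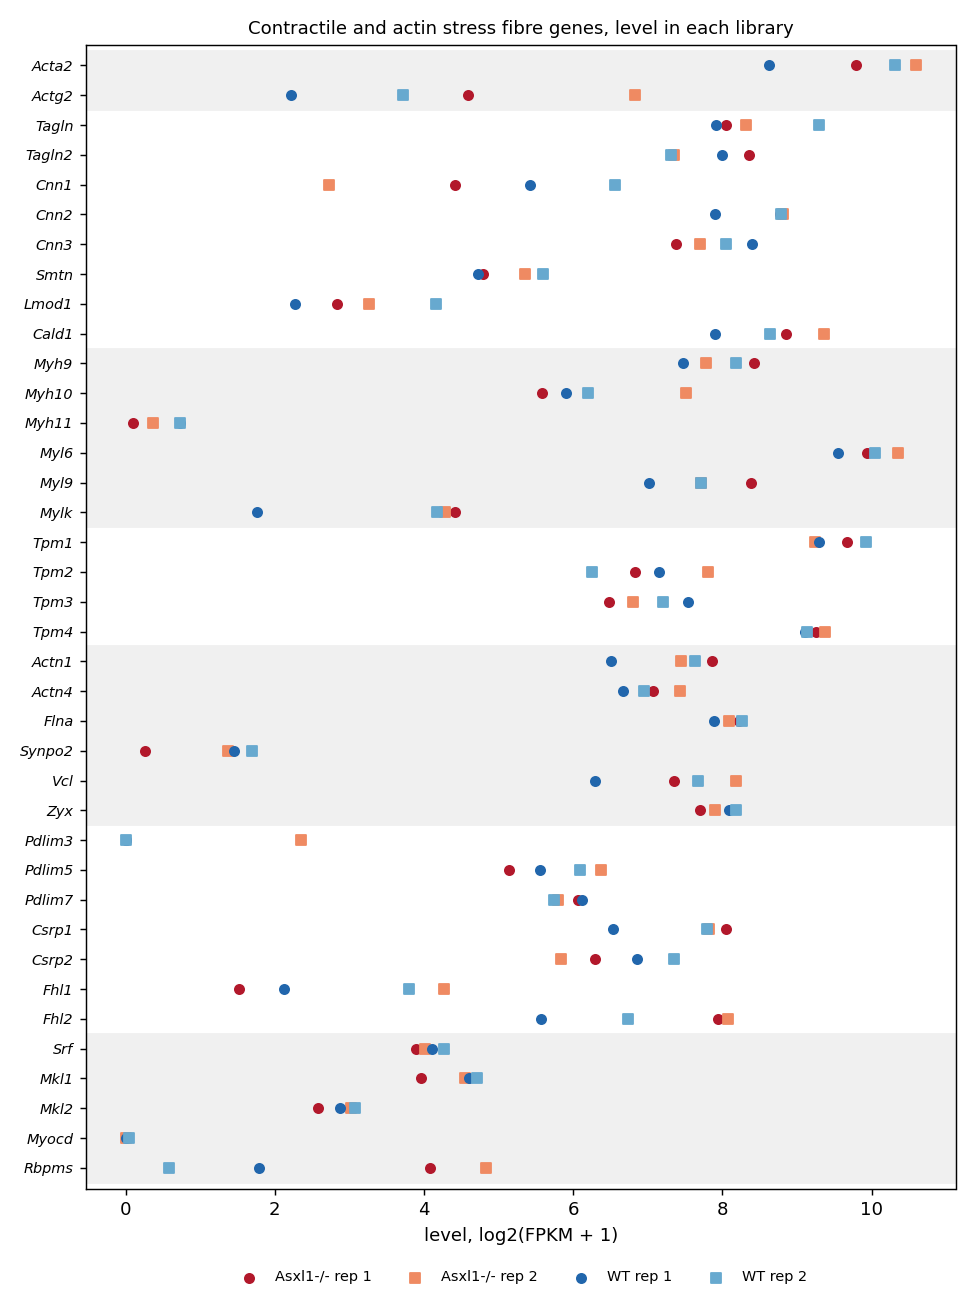
Level of each of the 38 genes on the log2(FPKM + 1) scale (x axis) in each library; Asxl1-/- libraries are red and orange, WT libraries dark and light blue, circles are replicates 1, squares replicates 2, and shaded bands separate the roles. Acta2, Myl6, Tpm1 and Tpm4 lie at the right in all libraries, Myh11, Synpo2 and Myocd at the left, and dark blue circles (WT replicate 1) are the lowest points of 18 tested genes.

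No member passed the limma test on log2(FPKM + 1) after Benjamini-Hochberg adjustment over all genes (0 of 36, with 0.0261% of all 11481 genes passing). Among the 11454 genes spanning 300 bp or more, 0 passed when fitted alone. The deleted gene Asxl1 is among these, so a member that did not pass is not shown to be unchanged. An unadjusted p under 0.05 was reached by 3 members with higher levels in Asxl1-/-, Rbpms, Fhl2 and Actg2 (2.51% of all genes), and by 3 with lower levels, Cnn1, Csrp2 and Tpm3 (5.41%). These counts rest on few libraries: they were 7 higher and 0 lower without WT replicate 2 (3.96% and 7.82% of all genes), 5 and 2 without Asxl1-/- replicate 1 (2.18% and 2.94%), 1 and 0 without Asxl1-/- replicate 2 (2.38% and 3.21%), and 2 and 4 without WT replicate 1 (1.94% and 3.73%). For 8 of 36 members neither WT library reached the lower Asxl1-/- library (15.6% of all genes). For 8 neither Asxl1-/- library reached the lower WT library (25.2%). Both shares of the members (22.2%) lie near the background. Synpo2, among these lower members, passed the filter through the WT libraries (mean 0.892 FPKM in Asxl1-/- and 1.98 FPKM in WT). With a filter at 5 FPKM, 8 members were higher and 7 lower (17.3% and 23.2% of all genes). With no filter these counts were 8 and 9 (9.42% and 17.0%). The balance depended on the scaling, since 10 members were higher and 5 lower after median ratio scaling (21.4% and 19.7% of all genes), 7 and 5 after quantile normalization (20.6% and 20.2%), and 10 and 4 with chromosome medians removed (20.9% and 21.2%). The median log2 fold change of the members, Asxl1-/- minus WT, was 0.20, beside -0.07 for all genes tested; without WT replicate 1 it was -0.04. The authors' deposited table marks Fhl2, Actg2 and Pdlim3 as higher in Asxl1-/- (3 of 37 members with a test there; 0.543% of all genes) and 0 members as lower (0.396%). Some of the 16 members whose genotypes did not overlap kept this under all 3 other scalings (median ratio, quantile and removal of chromosome medians). They were Actg2, Cald1, Mylk, Fhl2 and Rbpms (higher) and Cnn1, Cnn3, Tpm3 and Csrp2 (lower). The share of all genes that did so was not computed, so this list has no background to be set against.

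**Figure D2:**
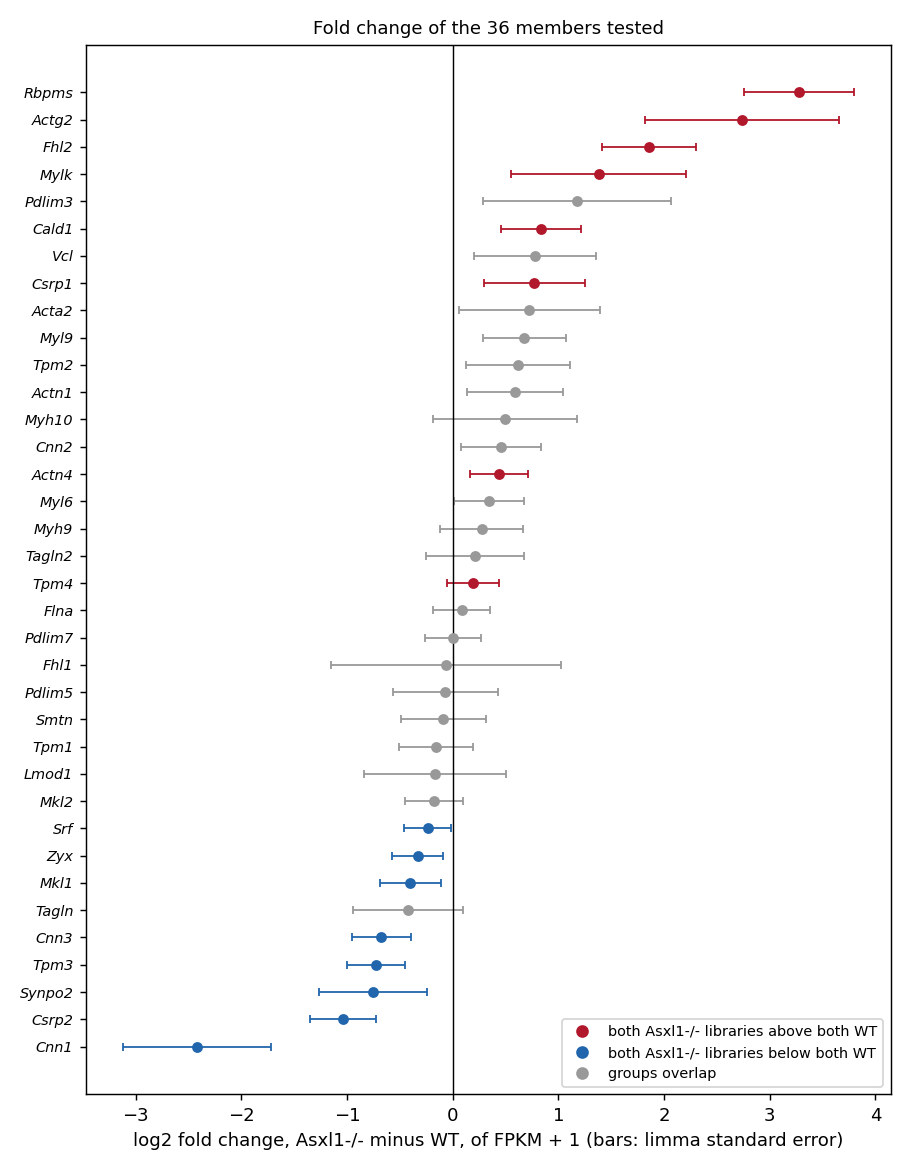
Fold change of each tested member on the log2(FPKM + 1) scale, Asxl1-/- minus WT, with its limma standard error (bars). Red marks the 8 genes with both Asxl1-/- libraries above both WT libraries, blue the 8 with both below and grey the 20 whose genotypes overlap; Rbpms at 3.28 and Cnn1 at -2.42 are the ends.

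Smooth muscle alpha-actin, Acta2 (mm10 chr19:34240336-34255373), the actin of myofibroblast stress fibres, was among the most abundant mRNAs of these cells, at 884 and 1545 FPKM in the Asxl1-/- libraries, against 393 and 1273 FPKM in the WT libraries. The genotypes overlapped, since WT replicate 2 exceeded Asxl1-/- replicate 1, and the low value was that of WT replicate 1 (log2 fold change 0.72, standard error 0.67, limma adjusted p = 0.801). Among genes spanning 300 bp or more its rank was 69 and 19 in the Asxl1-/- libraries and 154 and 39 in the WT libraries. Replicate 2 was the higher in both genotypes, as it was for macrophage markers, and a link was not tested. The enteric smooth muscle gamma-actin Actg2 (mm10 chr6:83512909-83536251), a late marker of visceral smooth muscle, had 23.0 and 113 FPKM in the Asxl1-/- libraries, against 3.67 and 12.2 FPKM in the WT libraries. All 4 values were distinct and both Asxl1-/- libraries were higher (log2 fold change 2.74, standard error 0.92, limma adjusted p = 0.602). The authors' deposited table marks Actg2 as significant (log2 fold change 3.20, q = 0.0361). Without 1 library its limma log2 fold change ran from 1.62 to 3.86, and the lowest value was the one without Asxl1-/- replicate 2.

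Within the actin family, levels per length showed that Acta2 made up 20.8% and 34.6% of the FPKM of the 4 actins in the Asxl1-/- libraries, against 14.01% and 24.2% in the WT libraries. Actg2 made up 0.540% and 2.53% in the Asxl1-/- libraries, against 0.131% and 0.231% in the WT libraries, so its share was higher in both Asxl1-/- cultures and small everywhere. The cytoplasmic actin Actg1 was the largest part, at 49.3% and 39.4% in the Asxl1-/- libraries, against 48.3% and 53.0% in the WT libraries, although 56.7% of the 50-base stretches of its longest transcript also occur in transcripts of other genes. For Acta2 this share was 0.352%, and for Actg2 it was 0. A composition does not depend on the scaling between libraries.

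**Figure D3:**
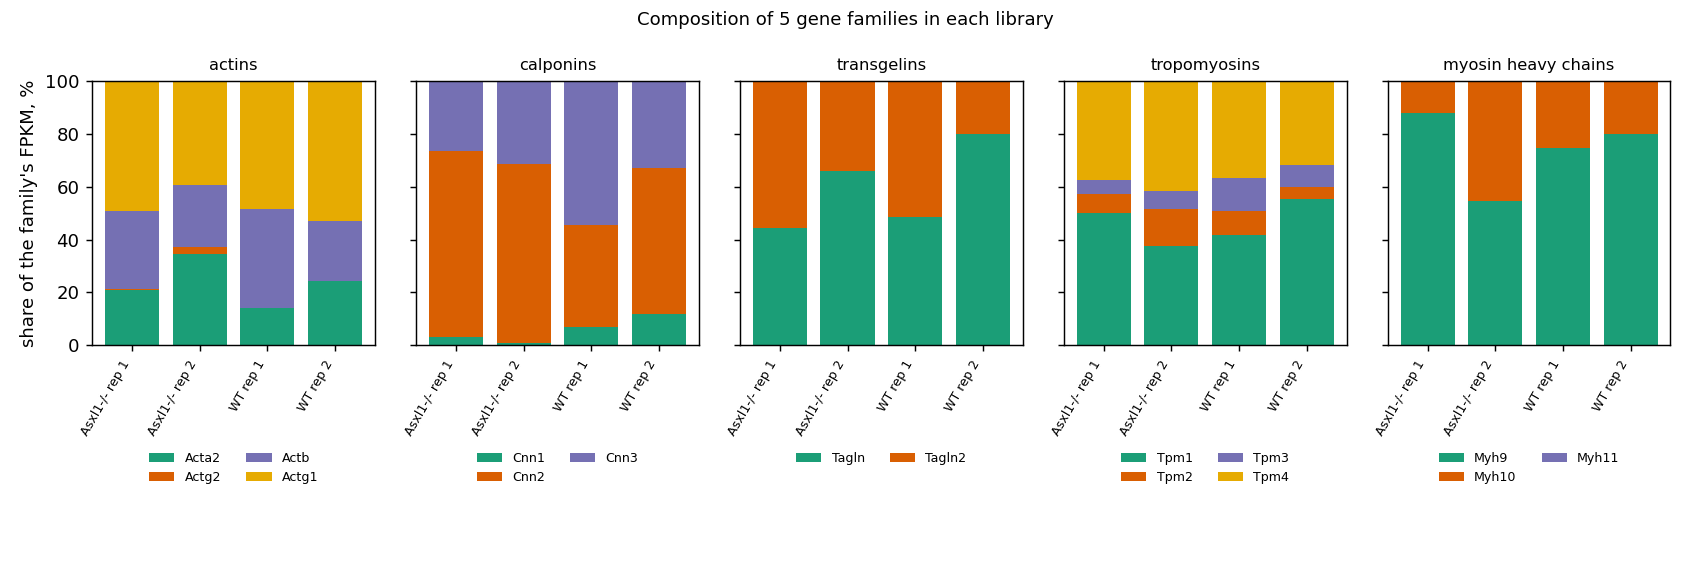
Share of each gene in the summed FPKM of its family (y axis, percent) in the 2 Asxl1-/- libraries (left pair of bars) and the 2 WT libraries (right pair). Cnn1 takes 3.25% and 0.851% of calponin FPKM in Asxl1-/- libraries against 6.84% and 11.7% in WT libraries, and Myh10 takes 45.2% of myosin heavy chain FPKM in Asxl1-/- replicate 2.

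Calponins bind actin filaments and stabilise stress fibres, and their members pointed in different directions. Cnn1 (mm10 chr9:22099253-22109221), the basic calponin of smooth muscle, had 20.3 and 5.63 FPKM in the Asxl1-/- libraries, against 42.0 and 93.2 FPKM in the WT libraries. Both Asxl1-/- values were below both WT values (log2 fold change -2.42, standard error 0.70, limma adjusted p = 0.562), and without 1 library the log2 fold change ran from -3.26 to -1.58. Cnn3, the acidic calponin of non-muscle cells, had 165 and 208 FPKM in the Asxl1-/- libraries, against 335 and 263 FPKM in the WT libraries, again without overlap (log2 fold change -0.68, standard error 0.28). Cnn2, the calponin of fibroblasts and macrophages among others, had 438 and 448 FPKM in the Asxl1-/- libraries, against 237 and 439 FPKM in the WT libraries, and only WT replicate 1 was clearly lower than the other 3. In shares of calponin FPKM, Cnn1 was lower in Asxl1-/- libraries, with 3.25% and 0.851%, against 6.84% and 11.7% in WT libraries. Cnn2 had 70.3% and 67.7% in Asxl1-/- libraries, against 38.6% and 55.2% in WT libraries, without overlap. The 559 tested genes of chromosome 3, where Cnn3 lies, had a median of -0.48, and with each library's chromosome medians removed the value of Cnn3 was -0.18. Of the 50-base stretches of Cnn3, 30.3% are shared with transcripts such as Gm42928. Cnn1 lies on chromosome 9, whose median deviation from the mean of the libraries was 0.04 and -0.11 in Asxl1-/- replicates 1 and 2 and -0.25 and 0.30 in WT replicates 1 and 2; with chromosome medians removed the log2 fold change of Cnn1 was -2.35.

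The early smooth muscle marker Tagln (SM22 alpha; mm10 chr9:45929628-45936058), a calponin relative on the same chromosome 9, had 263 and 318 FPKM in the Asxl1-/- libraries, against 239.7 and 626 FPKM in the WT libraries. Its high value was WT replicate 2 and the other 3 libraries were alike (log2 fold change -0.42, standard error 0.52, limma adjusted p = 0.860); without WT replicate 2 the sign turned, to 0.27. Of its 50-base stretches 48.3% are shared, above all with the overlapping antisense transcript Gm48529, and strandedness is not given, so this level is uncertain. Tagln2, the transgelin of non-muscle and blood cells, had 328 and 163 FPKM in the Asxl1-/- libraries, against 253 and 157 FPKM in the WT libraries, with replicate 1 the higher in both genotypes, the reverse of Acta2 and Tagln. Cald1, the caldesmon that binds actin, myosin and tropomyosin, had 461 and 655 FPKM in the Asxl1-/- libraries, against 238 and 398 FPKM in the WT libraries. Both Asxl1-/- libraries were higher (log2 fold change 0.83, standard error 0.38, limma adjusted p = 0.632).

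Smtn (smoothelin), an actin-binding protein of contractile smooth muscle, had 26.6 and 39.9 FPKM in the Asxl1-/- libraries, against 25.4 and 47.2 FPKM in the WT libraries, with overlap. Lmod1 (leiomodin), which nucleates actin filaments in smooth muscle, had 6.11 and 8.61 FPKM in the Asxl1-/- libraries, against 3.84 and 16.8 FPKM in the WT libraries, so both WT libraries enclosed the Asxl1-/- libraries. In either gene replicate 2 was the higher within each genotype.

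Non-muscle myosin carried nearly all of the heavy chain mRNA. Myh9, the heavy chain of non-muscle myosin IIA, had 342 and 219 FPKM in the Asxl1-/- libraries, against 176 and 290.3 FPKM in the WT libraries, and the genotypes overlapped. Myh10, the heavy chain of myosin IIB, had 47.1 and 181 FPKM in the Asxl1-/- libraries, against 58.8 and 72.7 FPKM in the WT libraries, where Asxl1-/- replicate 2 alone stood out. It made up 12.1% and 45.2% of the heavy chain FPKM in the Asxl1-/- libraries, against 24.9% and 20.0% in the WT libraries, so that the extremes were the 2 cultures of 1 genotype. Myh11, the smooth muscle heavy chain that defines the differentiated cell, had 0.0691 and 0.291 FPKM in the Asxl1-/- libraries, against 0.664 and 0.656 FPKM in the WT libraries; it was under 1 FPKM in every library and was not tested, although both Asxl1-/- values were the lower ones.

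Light chains sit on the neck of myosin, and phosphorylation of the regulatory one switches contraction on. Myl6, the essential light chain, had 978 and 1310.1 FPKM in the Asxl1-/- libraries, against 751 and 1059 FPKM in the WT libraries, the highest level of any member but Acta2 in Asxl1-/- replicate 2 and WT replicate 2 and the highest of all in the replicates 1. Of its 50-base stretches 18.5% are shared with other transcripts. Myl9, the regulatory light chain, had 331 and 209 FPKM in the Asxl1-/- libraries, against 129 and 209 FPKM in the WT libraries; the values of Asxl1-/- replicate 2 and WT replicate 2 were nearly the same, and WT replicate 1 was the lowest. Mylk, the kinase that phosphorylates the regulatory chain, had 20.4 and 18.4 FPKM in the Asxl1-/- libraries, against 2.38 and 17.1 FPKM in the WT libraries. Both Asxl1-/- libraries were above both WT libraries, but WT replicate 2 was close to them and only WT replicate 1 was far below (log2 fold change 1.38, standard error 0.83, limma adjusted p = 0.702). The log2 fold change of Mylk without 1 library ran from 0.17 to 2.59, and the lowest value was the one without WT replicate 1. Antisense transcripts overlap Mylk exons over 548 and 224 bases.

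Tropomyosins wind along the filament and set its access to myosin. Tpm1 had 815 and 602 FPKM in the Asxl1-/- libraries, against 627 and 974 FPKM in the WT libraries, and Tpm4 had 608 and 665 FPKM in the Asxl1-/- libraries, against 553 and 560.4 FPKM in the WT libraries. These were the main tropomyosins, at 37.6% to 55.5% and 31.9% to 41.5% of the family FPKM, and Tpm4 varied least of the 4, with the genotypes just apart (log2 fold change 0.19, standard error 0.25) except after quantile normalization. Tpm2, the beta-tropomyosin of muscle, had 112 and 223 FPKM in the Asxl1-/- libraries, against 141 and 75.3 FPKM in the WT libraries; the genotypes overlapped, and WT replicate 2 was the lowest. Tpm3, a tropomyosin of slow muscle and non-muscle cells, had 88.5 and 111 FPKM in the Asxl1-/- libraries, against 185 and 147 FPKM in the WT libraries, lower in both Asxl1-/- libraries (log2 fold change -0.73, standard error 0.27, limma adjusted p = 0.623). Like Cnn3 it lies on chromosome 3, and with chromosome medians removed its log2 fold change was -0.23. Of its 50-base stretches 62.4% are shared with other transcripts, among them Tpm3-rs7, so its level is uncertain.

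**Figure D4:**
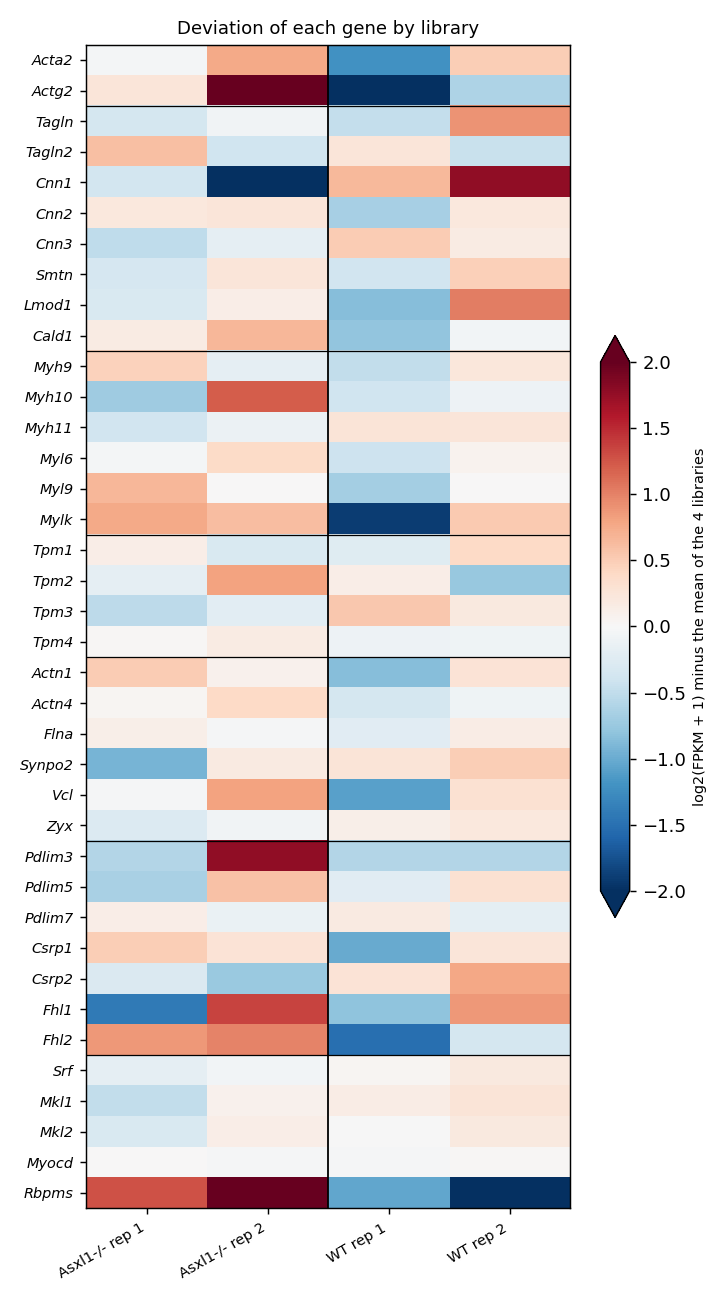
Deviation of log2(FPKM + 1) from the mean of the 4 libraries for each gene (rows, black lines between roles) in the 2 Asxl1-/- and the 2 WT libraries (columns); colours are capped at -2 and 2. The column of WT replicate 1 is mostly blue (median deviation of the tested members -0.39) and that of WT replicate 2 mostly red (0.21). Fhl2, Rbpms, Actg2, Cnn1 and Csrp2 are among the members whose genotypes did not overlap, and none of them passed the adjusted limma test.

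Among the crosslinkers and adhesion proteins, the alpha-actinin Actn4 had 133 and 172 FPKM in the Asxl1-/- libraries, against 101 and 123 FPKM in the WT libraries, with both Asxl1-/- libraries higher by a small margin (log2 fold change 0.44, standard error 0.27); after quantile normalization the genotypes overlapped. Actn1, the other non-muscle alpha-actinin, had 232 and 173 FPKM in the Asxl1-/- libraries, against 89.5 and 197 FPKM in the WT libraries. Its low value was that of WT replicate 1. Vcl (vinculin), which links actin to adhesions, had 163 and 288 FPKM in the Asxl1-/- libraries, against 77.5 and 203 FPKM in the WT libraries, with the same low library; 39.2% of its 50-base stretches are shared with Ap3m1, which overlaps it on the other strand. Flna (filamin A), the crosslinker of cortical actin, had 299 and 271 FPKM in the Asxl1-/- libraries, against 236 and 305 FPKM in the WT libraries, and the 4 levels lay close together. Zyx (zyxin), an adhesion protein that moves to strained stress fibres, had 206 and 238 FPKM in the Asxl1-/- libraries, against 271 and 288 FPKM in the WT libraries, with both Asxl1-/- libraries slightly lower (log2 fold change -0.33, standard error 0.24); with chromosome medians removed the genotypes overlapped. Synpo2, a filamin-binding protein of muscle, had 0.202 and 1.58 FPKM in the Asxl1-/- libraries, against 1.74 and 2.23 FPKM in the WT libraries, lower in both Asxl1-/- libraries as deposited (log2 fold change -0.76, standard error 0.51), but overlapping under each of the 3 other scalings.

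LIM domain proteins dock on filaments and adhesions, and some shuttle to the nucleus. Fhl2 (mm10 chr1:43123071-43196761), a LIM-only protein that binds Srf and is itself an Srf target, had 245 and 267 FPKM in the Asxl1-/- libraries, against 46.4 and 105 FPKM in the WT libraries. The Asxl1-/- libraries were close to each other and both were well above the higher WT library (log2 fold change 1.86, standard error 0.45, limma adjusted p = 0.525). The authors' deposited table marks Fhl2 as significant (log2 fold change 1.86, q = 0.00836). Without 1 library the limma log2 fold change of Fhl2 ran from 1.28 to 2.44. The row of Fhl2 ends at the start site of the RefSeq window whose bases are printed above, and the table also lists a second start site with a CArG box of its own. Its relative Fhl1 had 1.87 and 18.3 FPKM in the Asxl1-/- libraries, against 3.34 and 12.9 FPKM in the WT libraries, so that replicate 2 was several times replicate 1 in both genotypes and the genotypes overlapped.

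Csrp1 and Csrp2 are LIM proteins of smooth muscle filaments. Csrp1 had 263 and 225 FPKM in the Asxl1-/- libraries, against 91.7 and 220.1 FPKM in the WT libraries, with both Asxl1-/- libraries just above WT replicate 2 (log2 fold change 0.77, standard error 0.48); with chromosome medians removed the genotypes overlapped. Csrp2 (mm10 chr10:110920176-110939514) had 77.3 and 56.3 FPKM in the Asxl1-/- libraries, against 115 and 162 FPKM in the WT libraries, and both Asxl1-/- libraries were lower (log2 fold change -1.04, standard error 0.31, limma adjusted p = 0.564). The authors' deposited table leaves Csrp2 unmarked (log2 fold change -0.95, q = 0.699). The pair thus pointed in opposite directions.

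Of the PDZ-LIM proteins, which link alpha-actinin to filaments, Pdlim3 was listed at 0 in Asxl1-/- replicate 1 and in both WT libraries and had 4.11 FPKM in Asxl1-/- replicate 2. The authors' deposited table marks Pdlim3 as significant, with 2.59 FPKM for Asxl1-/- and 0 FPKM for WT and a q of 0.00836. The limma log2 fold change of Pdlim3 was 1.18 with a standard error of 0.89 and an adjusted p of 0.761, and it was 0 without Asxl1-/- replicate 2. Pdlim5 had 34.1 and 81.7 FPKM in the Asxl1-/- libraries, against 46.0 and 67.3 FPKM in the WT libraries, and Pdlim7 had 66.2 and 54.4 FPKM in the Asxl1-/- libraries, against 68.3 and 52.5 FPKM in the WT libraries. In both the genotypes overlapped.

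Srf (mm10 chr17:46546839-46556162) had 13.9 and 15.1 FPKM in the Asxl1-/- libraries, against 16.2 and 18.3 FPKM in the WT libraries, and its Asxl1-/- values were lower by a small margin (log2 fold change -0.24, standard error 0.22, limma adjusted p = 0.807). Mkl1, the Srf partner that is held in the cytoplasm by free actin, had 14.6 and 22.4 FPKM in the Asxl1-/- libraries, against 23.3 and 25.3 FPKM in the WT libraries, also lower (log2 fold change -0.40, standard error 0.29). For both genes the genotypes overlapped under each of the 3 other scalings. Mkl2, the related partner, had 4.96 and 7.09 FPKM in the Asxl1-/- libraries, against 6.34 and 7.43 FPKM in the WT libraries, with overlap. Myocd, the partner that drives the smooth muscle programme, reached at most 0.0314 FPKM (0.0232 FPKM and a value listed at 0 in Asxl1-/-, a value listed at 0 and 0.0314 FPKM in WT), so it was not tested.

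Rbpms (mm10 chr8:33782644-33929863), an RNA-binding protein that in rat promotes splice forms of differentiated smooth muscle, had 16.0 and 27.4 FPKM in the Asxl1-/- libraries, against 2.44 and 0.491 FPKM in the WT libraries. This was the largest fold change among the members, with no overlap (log2 fold change 3.28, standard error 0.52, limma adjusted p = 0.474). The authors' deposited table leaves Rbpms unmarked (log2 fold change 4.03, q = 0.0811). Without 1 library its log2 fold change ran from 2.67 to 3.88.

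Related genes outside the 38 were taken from 4 lists, and 0 of their tested genes passed the adjusted limma threshold. Over all genes, 43.2% had a log2 fold change above 0 and 56.8% below 0. As above, 15.6% were higher and 25.2% lower in both Asxl1-/- libraries, and 2.51% were higher and 5.41% lower at an unadjusted p under 0.05. The 31 genes of actin filament assembly and turnover had a median of 0.03, with 17 above and 14 below 0, 6 higher and 4 lower in both Asxl1-/- libraries, and 1 lower gene at an unadjusted p under 0.05. This was Wasf1, an activator of branched actin, with 2.10 and 3.65 FPKM in the Asxl1-/- libraries, against 9.74 and 6.87 FPKM in the WT libraries. The actin-sequestering Tmsb4x had 3511 and 2508 FPKM in the Asxl1-/- libraries, against 1618 and 1853 FPKM in the WT libraries, and Twf1 (twinfilin) had 72.4 and 56.5 FPKM in the Asxl1-/- libraries, against 40.8 and 50.4 FPKM in the WT libraries; in both the Asxl1-/- libraries were the higher.

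Other crosslinkers and adhesion proteins had a median of 0.39 on the log2 scale across 28 genes, 16 above and 12 below 0, with 10 higher and 6 lower in both Asxl1-/- libraries and 2 higher at an unadjusted p under 0.05. These were the PDZ-LIM protein Pdlim1, with 109 and 212 FPKM in the Asxl1-/- libraries, against 15.0 and 66.7 FPKM in the WT libraries, and Lima1 (EPLIN), with 158 and 154 FPKM in the Asxl1-/- libraries, against 107 and 92.9 FPKM in the WT libraries. The muscle filamin Flnc was lower, with 28.3 and 32.7 FPKM in the Asxl1-/- libraries, against 42.5 and 56.6 FPKM in the WT libraries. Of 20 other smooth muscle genes, 11 were abundant enough to test, and of these 5 were higher and 2 lower in both Asxl1-/- libraries, with 2 higher and 1 lower at an unadjusted p under 0.05. These counts depend on the filter. Of the 5 higher genes, Sncg and Mrvi1 passed it through the Asxl1-/- libraries alone. Mrvi1 had 1.57 and 5.04 FPKM in the Asxl1-/- libraries, against 0.638 and 0.634 FPKM in the WT libraries. Synm (synemin), with 0.158 and 0.251 FPKM in the Asxl1-/- libraries, against 1.37 and 1.80 FPKM in the WT libraries, did not pass it. Mustn1, a small musculoskeletal protein, had 29.2 and 34.3 FPKM in the Asxl1-/- libraries, against 9.47 and 4.63 FPKM in the WT libraries. Sncg (gamma-synuclein) had 2.43 and 2.54 FPKM in the Asxl1-/- libraries, against a value listed at 0 and 0.0772 FPKM in the WT libraries. Npnt (nephronectin), a matrix ligand of integrins, had 1.01 and 0.943 FPKM in the Asxl1-/- libraries, against 13.1 and 3.01 FPKM in the WT libraries. The smooth muscle channel subunit Kcnmb1 was listed at 0 in all 4 libraries and Des (desmin) reached at most 1.08 FPKM, low levels like those of Myh11.

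The 22 genes of the Yap, Taz and Tead group, a second actin-responsive transcription system, had a median of 0.01, with 11 above and 11 below 0, 3 higher and 3 lower in both Asxl1-/- libraries, and 1 lower at an unadjusted p under 0.05. Its target Cyr61, a matricellular protein, had 217 and 244 FPKM in the Asxl1-/- libraries, against 383 and 383 FPKM in the WT libraries, lower in both Asxl1-/- libraries with close replicates (log2 fold change -0.73, standard error 0.24, limma adjusted p = 0.596); it lies on chromosome 3. Tead3 had 22.3 and 24.6 FPKM in the Asxl1-/- libraries, against 12.1 and 16.8 FPKM in the WT libraries, and Tead2 had 8.997 and 7.68 FPKM in the Asxl1-/- libraries, against 25.2 and 11.7 FPKM in the WT libraries, so these factors pointed in opposite directions. The target Ankrd1 had 0.239 and 62.2 FPKM in the Asxl1-/- libraries, against 40.1 and 1.08 FPKM in the WT libraries, high in 1 library of each genotype. The target Ctgf had 533 and 179 FPKM in the Asxl1-/- libraries, against 32.5 and 198 FPKM in the WT libraries. Its genotypes overlapped, and its fold change was opposite in sign to that of Cyr61 (log2 fold change 1.93, standard error 1.02).

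**Figure D5:**
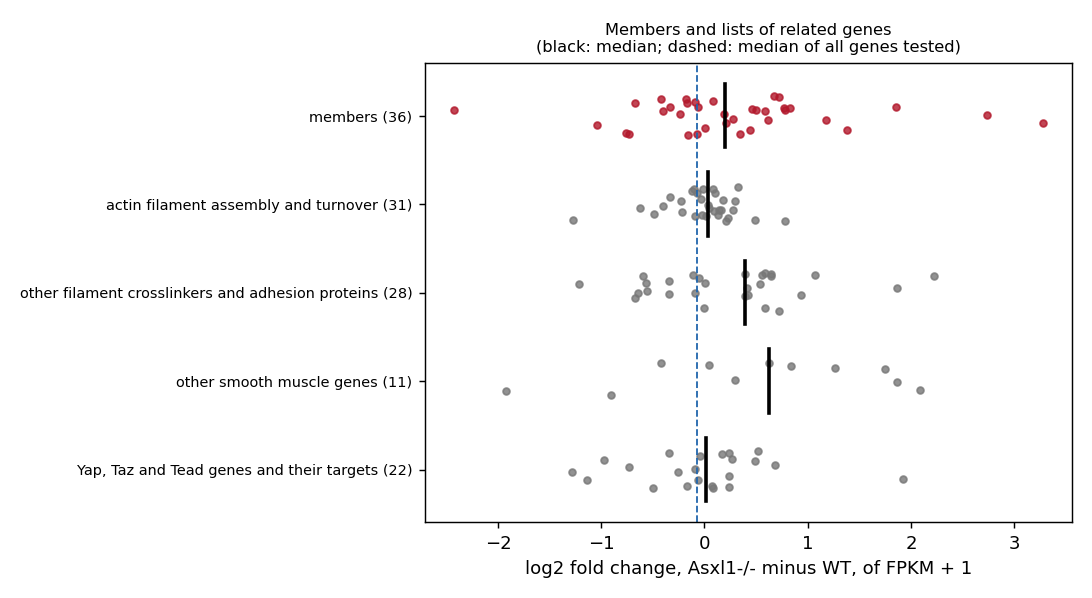
Fold change on the log2(FPKM + 1) scale, Asxl1-/- minus WT, of each tested gene (points) among the members (red) and in 4 lists of related genes (grey), with the median of each set (black bar) and of all genes tested (dashed, -0.07). The members spread from -2.42 to 3.28 around 0.20, wider than the genes of filament assembly and turnover around 0.03.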

How the data were processed

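RNA of 2 Asxl1-/- and 2 WT cultures was compared. The submitters' processing notes name TopHat2 2.0.3, Cufflinks 2.2.1, Cuffdiff and build mm10. The annotation, the kit, its strandedness and the number of reads are not given, so depth is unknown. The authors deposited FPKM per library, which are not read counts. A second deposited table gives, per the file headers, Cuffdiff FPKM per genotype, log2 fold changes of Asxl1-/- over WT, p-values and q-values. In the FPKM table and its log copy, 4 columns of libraries belong to no sample listed for the series and were left out. The log copy was not used either.

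One row per symbol was kept (the highest mean; 260 symbols had more). The 11481 genes whose mean over the 4 libraries reached 1 FPKM were fitted with limma 3.58.1 (R 4.3.3; lmFit, eBayes with variance trend) on log2(FPKM + 1), with Benjamini-Hochberg adjustment over all of them at 0.05. The fit was tested on simulated data with normal noise of a set size, not taken from these libraries. That test therefore does not show its power here. An exact permutation test of 2 against 2 libraries cannot go below p = 0.333 (two-sided). Replicates were numbered in accession order and pair nothing. Promoter windows came from RefSeq (GRCm38.p6), the primary assembly of mm10, and shared 50-base stretches and exon overlaps from GENCODE M21. Tables and figures were made with Python 3.11.15, pandas 2.3.3 and matplotlib 3.10.9.

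The members, lists and tests were chosen with earlier results of these data known. Every member was named. Fold changes were printed for members whose genotypes did not overlap, had an unadjusted p under 0.05 or were marked by the authors. They were also printed for Acta2, Tagln, Cnn1 and Srf. From each pathway list the 3 genes with the smallest p were named. Mrvi1, Synm, Kcnmb1, Des, Ankrd1 and Ctgf were named outside this rule. Alternatives were other pseudocounts (0.1 and 0.5), no low-value filter or one at 5 FPKM, scaling by median ratios or quantiles, only genes spanning 300 bp or more, eBayes without trend or robust, removal of each library's chromosome medians, and each library left out. Chosen after seeing the data were the search for CArG boxes with an inner G or C and the count of members whose genotypes stay apart under all 3 other scalings. A further list of related genes is not reported here.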

Additional observations from a re-analysis of the deposited data

How the results depend on the processing

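No member passed the adjusted threshold in any of the 10 alternative fits on all 4 libraries. In these 10 fits the median over the members ran from 0.138 (no low-value filter) to 0.316 (median ratio scaling), beside 0.202 in the main fit. Each move was smaller than the spread of that median between replicates (0.317). This spread is larger than the median itself, so such a comparison could hardly show a move. The 4 fits that leave out 1 library cannot be judged by this spread, because it was computed from the same differences between replicates. Over these 4 fits the median of the members ran from -0.04 to 0.46, and it changed sign without WT replicate 1. In place of 8 members higher and 8 lower in both Asxl1-/- libraries, there were 10 and 5 when scaled by median ratios, 7 and 5 when quantile normalized and 10 and 4 with chromosome medians removed. With 1 library left out, which leaves 3 to compare, 11 to 19 members did not overlap and were higher (28.0% to 31.0% of all genes) and 9 to 14 lower (37.9% to 45.3%). The sign of the fold change stayed the same in every fit for 22 members, and Pdlim3 was at exactly 0 without Asxl1-/- replicate 2. It turned without 1 library for 13, with log2 fold changes of -0.12 to 1.57 for Acta2, -1.11 to 0.27 for Tagln, -0.29 to 0.71 for Tagln2, -0.52 to 0.35 for Smtn, -1.11 to 0.77 for Lmod1, -0.084 to 0.63 for Myh9, -0.46 to 1.46 for Myh10, -0.48 to 0.16 for Tpm1, -0.10 to 0.27 for Flna, -0.69 to 0.55 for Pdlim5, -0.18 to 0.19 for Pdlim7, -1.44 to 1.31 for Fhl1 and -0.40 to 0.042 for Mkl2. Under median ratio scaling it also turned for Smtn (0.022), Pdlim5 (0.039) and Fhl1 (0.030), under quantile normalization for Fhl1 (0.088), and with chromosome medians removed for Pdlim5 (0.42), Fhl1 (0.060) and Mkl2 (0.034); the cause was not tested. Where a fit leaves 1 library in a genotype, that library is assumed to vary like the others. Shares within families were the same when all rows of a symbol were summed. Outside the actins this was fixed in advance, because each member had exactly 1 row. No paired analysis was possible because the labels give the libraries no shared numbers.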

Other observations

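The 10 pericyte markers summed to 158 and 160 FPKM in the Asxl1-/- libraries, against 146 and 102 FPKM in the WT libraries. The largest part of each sum was Pdgfrb, which is also in the mesenchymal stromal list, with 103 and 135 FPKM in the Asxl1-/- libraries, against 86.9 and 49.2 FPKM in the WT libraries. Rgs5, a regulator of G protein signalling in pericytes, had 36.3 and 0.576 FPKM in the Asxl1-/- libraries, against 0.216 and 1.07 FPKM in the WT libraries, so Asxl1-/- replicate 1 alone was high. Notch3, a receptor of vascular mural cells, had 9.41 and 1.12 FPKM in the Asxl1-/- libraries, against 1.07 and 17.1 FPKM in the WT libraries. Mcam had 1.97 and 3.44 FPKM in the Asxl1-/- libraries, against 1.40 and 14.02 FPKM in the WT libraries, highest in WT replicate 2. Notch3 and Cspg4 were highest in the same library. Pdgfrb and Ndufa4l2 were instead lowest there, and Anpep and Ndufa4l2 were highest in WT replicate 1. The pericyte markers thus did not single out 1 library. WT replicate 2 was highest for 12 of the 36 tested members, Tagln, Cnn1 and Lmod1 among them, beside 20.7% of all genes tested. A link between these members and the pericyte markers was not tested. Acta2 and Actg2 were highest in Asxl1-/- replicate 2.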
